A study of Homo sapiens with 6 samples.

Results

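The genes of MHC class I antigen presentation were followed in docetaxel-resistant prostate cancer cells before and after silencing of MUC1. The set comprised 9 genes picked by symbol from the 28008 genes of the deposited count table, and all 9 were found and passed the filter on low counts. They were the heavy chain genes HLA-B, HLA-C, HLA-E and HLA-F, the light chain gene B2M, the peptide loading genes TAP1, TAP2 and TAPBP, and NLRC5. The cells were DU-145-DR/tet-MUC1shRNA, which descend from the human prostate cancer line DU-145 through continuous docetaxel (DTX) exposure and which carry a doxycycline-inducible hairpin against MUC1. Bulk RNA-Seq libraries came from 3 cultures given 0.1% DMSO (DOX-negative) and 3 given 500 ng/ml doxycycline (DOX-positive), all from the resistant line. Per-sample treatment labels mention the hairpin for the DOX-positive cultures and DTX resistance for the DOX-negative ones. That both arms carry the vector follows from the sample titles and the study's methods. Doxycycline itself and the loss of MUC1 cannot be told apart here, because no control hairpin given DOX was analysed.

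MHC class I molecules show peptides from inside the cell to CD8+ T cells, and their loss is a common route by which tumor cells avoid them. Proteasomes cut proteins into peptides, the TAP1/TAP2 transporter carries the peptides into the endoplasmic reticulum, and tapasin, the product of TAPBP, holds empty class I molecules next to the transporter until they are loaded. A heavy chain reaches the surface only with the light chain β2-microglobulin and a peptide. NLRC5 is the transactivator of these genes, working with RFX, CREB/ATF and NF-Y factors bound at their promoters, and interferon acts on the same promoters through STAT and IRF factors.

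Library totals ranged from 15092691 to 23243713 counts, and 3 counts, taken as the floor of detection, corresponded to 0.129 to 0.199 CPM, the gene's reads relative to all reads of the library. MUC1, the silenced gene, had 387, 484 and 396 counts in DOX-negative and 75, 74 and 66 counts in DOX-positive libraries. The log2 fold change of MUC1 was -2.52 (SE 0.146, edgeR adjusted p = 4.47e-11), so the labels and the target agreed in every library. The epithelial markers EPCAM, CDH1, KRT8 and KRT18 were well expressed and all 4 were higher with DOX, with a summed level of 587 to 651 CPM against 1077 to 1165 CPM. Of the luminal prostate markers, KLK3 had 0 counts in every library and KLK2 had at most 1. Of 8 leukocyte markers, CD3E and MS4A1 had 0 counts and PTPRC, LYZ and NCAM1 had at most 3 in any library, while CD68 rose (log2 fold change 0.75, SE 0.0722, edgeR adjusted p = 8.39e-08). The summed leukocyte list went from between 91.7 and 107 CPM to between 158 and 179 CPM, nearly all of it CD68. The summed list of 6 fibroblast and endothelial markers lay between 4.19 and 5.06 CPM in DOX-negative and between 4.23 and 5.80 CPM in DOX-positive libraries. The part of these marker shifts in the results that follow was not tested, and in bulk RNA a changed share of cells and a changed level per cell cannot be told apart.

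The promoters of 4 members are shown because B2M was the member that passed the test, HLA-B and HLA-C are near neighbours with different promoter motifs, and TAP1 starts next to the immunoproteasome gene PSMB9 on the opposite strand. Each line gives, 5′ to 3′ on the gene's own strand, the 250 bases before the RefSeq start site in GRCh38.p14, at chr15:44711267-44711516 (plus strand) for B2M, chr6:31357180-31357429 (minus) for HLA-B, chr6:31272093-31272342 (minus) for HLA-C and chr6:32853705-32853954 (minus) for the upstream start of TAP1. Capitals mark matches, on either strand, to the interferon response (ISRE-like) motif (GAAA, any 2 bases, then GAAA), the STAT (GAS-like) motif TTCNNNGAA, the NF-kB-like motif GGGNNTTCC, the NF-Y motif CCAAT and the CRE-like motif TGACG.
B2M: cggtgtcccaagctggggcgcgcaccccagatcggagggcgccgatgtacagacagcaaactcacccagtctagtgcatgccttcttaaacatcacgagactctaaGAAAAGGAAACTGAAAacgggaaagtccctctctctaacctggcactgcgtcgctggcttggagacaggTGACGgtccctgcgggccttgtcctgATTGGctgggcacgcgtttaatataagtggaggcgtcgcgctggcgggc
HLA-B: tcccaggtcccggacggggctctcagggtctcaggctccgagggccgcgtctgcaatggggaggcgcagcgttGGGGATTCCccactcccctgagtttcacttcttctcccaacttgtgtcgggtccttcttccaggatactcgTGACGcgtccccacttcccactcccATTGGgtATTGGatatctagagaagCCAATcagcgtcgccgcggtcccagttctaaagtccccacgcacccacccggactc
HLA-C: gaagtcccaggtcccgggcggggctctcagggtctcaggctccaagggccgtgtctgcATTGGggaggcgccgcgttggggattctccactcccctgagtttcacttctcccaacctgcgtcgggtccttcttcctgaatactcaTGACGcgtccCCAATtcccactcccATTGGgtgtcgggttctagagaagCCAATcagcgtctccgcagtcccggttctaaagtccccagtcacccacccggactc
TAP1: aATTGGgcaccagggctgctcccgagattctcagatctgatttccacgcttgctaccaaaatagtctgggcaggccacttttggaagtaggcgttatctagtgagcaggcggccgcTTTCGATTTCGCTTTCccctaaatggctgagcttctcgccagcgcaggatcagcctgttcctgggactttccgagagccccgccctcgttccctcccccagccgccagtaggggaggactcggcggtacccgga
In B2M, 2 overlapping ISRE-like matches began 144 and 138 bases before the start, followed by a CRE-like match at 75 and a CCAAT match at 49. HLA-B and HLA-C both held a CRE-like match, at 106 and 105 bases, and several CCAAT matches, but the NF-kB-like match at 177 bases was found in HLA-B and not in HLA-C. TAP1 held 2 overlapping ISRE-like matches at 134 and 128 bases. Promoters were at hand for 7 of the 9 members. ISRE-like matches occurred in 5 of these 7 (HLA-F, TAP1, TAP2, TAPBP and B2M), against 3.02% of 35116 promoters of the same length. NF-kB-like matches occurred in 2 (HLA-B and TAPBP, 5.78% of all), GAS-like in 1, at a second TAP1 start (6.57%), CCAAT in 5 (32.0%) and CRE-like in 4 (21.2%). Apart from the ISRE-like pairs in B2M, TAP1 and TAPBP, no matches overlapped in these promoters. A match is a description of the letters and no evidence of binding.

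Of the class I genes, B2M alone passed the test after MUC1 silencing, with a small rise, and the fitted change of the other 8 lay between -0.19 and 0.32 on the log2 scale. Of the 9 genes, 1 had an edgeR adjusted p under 0.05 (11.1%), against 26.7% of the 14292 genes tested (3816 genes: 13% higher and 13.7% lower). The median absolute log2 fold change was 0.117 over the members and 0.191 over all genes. The DOX-positive libraries lay wholly apart from the DOX-negative ones in CPM for B2M only, while 39.8% of all genes were separated in this way (19.5% higher, 20.2% lower). The fitted change was positive for 7 members and negative for 2, with a median of 0.069 against -0.0034 for all genes. The plot of CPM by library shows the overlap of the groups in 8 of 9 genes.

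**Figure D1:**
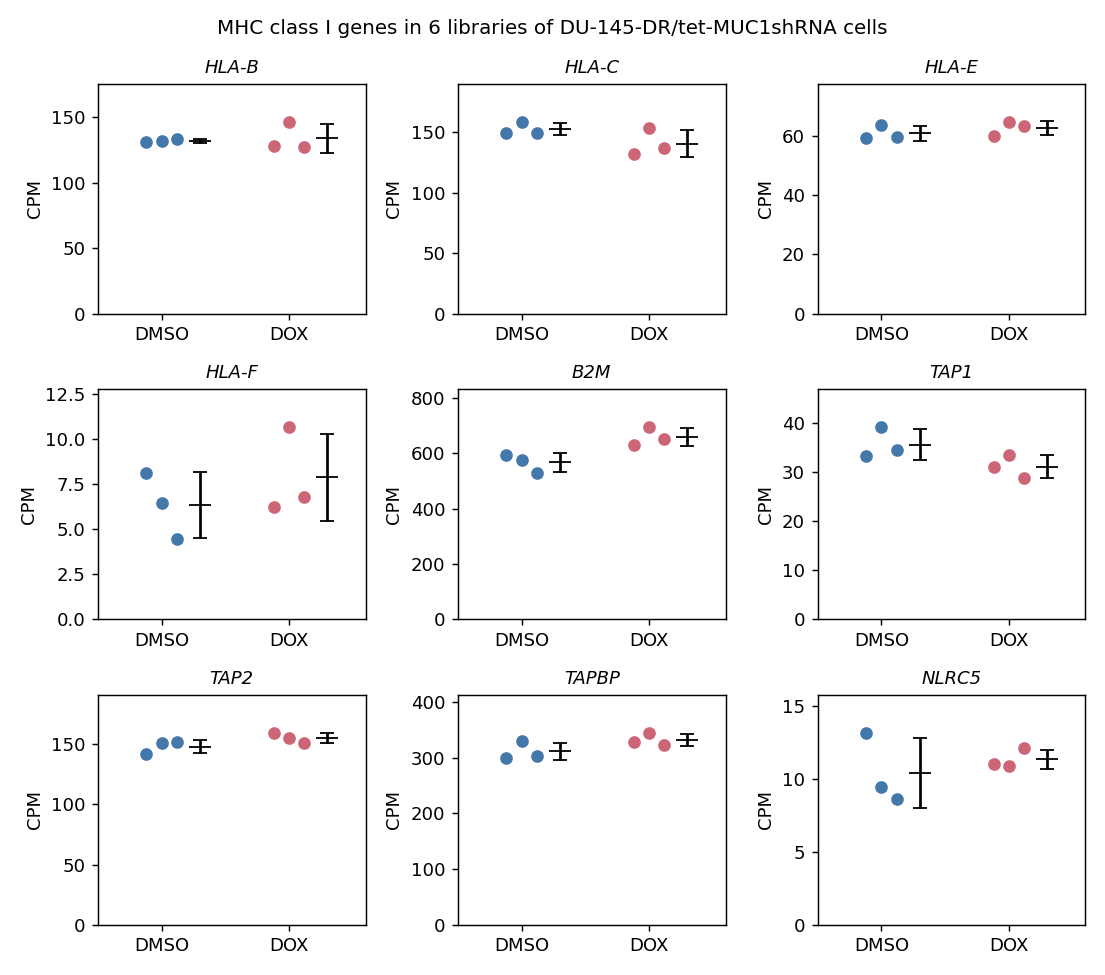
Level of each of the 9 genes in CPM (linear axis from 0) in the 3 DMSO and 3 DOX libraries; points are libraries and the bar is the mean with SD (n = 3). Only for B2M do all DOX points (631 to 694 CPM) lie above all DMSO points (530 to 595 CPM).

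HLA-B and HLA-C encode the classical heavy chains that carry peptide to T cells. HLA-B (ENSG00000234745.10, chr6:31269491-31357188, minus strand, GRCh38) had 130.7, 131.7 and 133.4 CPM in DOX-negative and 128.03, 146.3 and 126.8 CPM in DOX-positive libraries. Its DOX-negative libraries were nearly identical and fell inside the range of the DOX-positive ones. The log2 fold change was 0.019 (SE 0.0684), with a 95% interval from -0.12 to 0.16 that leaves room for a fold between 0.919 and 1.12 (edgeR adjusted p = 0.871), and it changed sign between alternatives. HLA-C (ENSG00000204525.16, chr6:31268749-31272130, minus strand) had 149.8, 158.7 and 149.7 CPM without DOX and 132.04, 153.3 and 137.2 CPM with it. Replicate 2 of the DOX-positive group reached into the DOX-negative range. The fitted change was -0.12 (SE 0.0684, 95% interval -0.26 to 0.025, edgeR adjusted p = 0.221).

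HLA-E presents leader peptides of other class I chains to the NK cell receptor NKG2A, and HLA-F is a non-classical heavy chain with limited tissue expression. HLA-E (chr6:30489467-30494205, plus strand) had 59.1, 63.6 and 59.6 CPM in DOX-negative and 59.8, 64.6 and 63.1 CPM in DOX-positive libraries. These overlapping values gave a log2 fold change of 0.040 (SE 0.0744, 95% interval -0.11 to 0.19, edgeR adjusted p = 0.738). HLA-F (chr6:29722775-29738528, plus strand) was far scarcer, with 148, 126 and 90 counts in DOX-negative and 143, 204 and 101 in DOX-positive libraries. Its fitted change was 0.32 with an SE of 0.21, and a fold between 0.921 and 1.69 lies in the 95% interval (edgeR adjusted p = 0.286). The value was 0.034 without DOX-positive replicate 2, 0.12 without DOX-negative replicate 3 and 0.53 without DOX-negative replicate 1. HLA-F-AS1 lies antisense over 12.3% of the HLA-F exon bases, and the pseudogenes AL645939.1 and RPL23AP1 over 16.1% and 5.92%. The counting is not stated to have used strand, so reads of HLA-F and of these antisense genes cannot be told apart.

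The heavy chain genes are near-identical in places, so their read assignment was examined in the GENCODE 29 transcripts. Of all 50-base windows in the principal transcript, 2.54% in HLA-B, 6.79% in HLA-C, 5.13% in HLA-E and 1.70% in HLA-F also occur in another gene, and B2M, TAPBP and NLRC5 share none. At 100 bases, the shares were 0% for HLA-B and HLA-F, 0.278% for HLA-C and 0.6% for HLA-E. The annotated HLA-B gene also runs into HLA-C through 35 shared exon bases. A larger overlap is antisense: the pseudogene AL671883.2 lies over 17.8% of the HLA-B exon bases, and use of strand in the counting is not stated. The 3 other heavy chain genes or pseudogenes that could be tested also did not pass. HLA-G had at most 1 count in any library.

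B2M (ENSG00000166710.18, chr15:44711487-44718877, plus strand) encodes β2-microglobulin, the light chain shared by all class I heavy chains. It had 10813, 11283 and 10653 counts in DOX-negative and 14479, 13290 and 9731 counts in DOX-positive libraries. Scaled to depth, these were 595, 577 and 530.0 CPM against 631, 694 and 654 CPM, with no overlap between the groups. The mean was 567 ± 33.6 CPM without and 660 ± 32.02 CPM with DOX (SD, n = 3 each). B2M rose by 0.22 on the log2 scale (SE 0.0644, 95% interval 0.084 to 0.35, edgeR adjusted p = 0.0149), or 16.3% more transcript. In size this rise was ordinary: 54.9% of all genes tested had a smaller absolute change. The call rested on 2 libraries. Without DOX-negative replicate 3 the change was 0.17 (edgeR adjusted p = 0.0675), and without DOX-positive replicate 2 it was 0.18 (edgeR adjusted p = 0.0596). In the deposited TPM it was -0.17 or -0.18, where the median of all genes stood at -0.32 or -0.39, and relative to that median B2M was higher by 0.15 or 0.21.

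TAP1, TAP2 and TAPBP encode the peptide transporter and its tether to class I. TAP1 (chr6:32845209-32853978, minus strand) had 33.2, 39.2 and 34.6 CPM in DOX-negative and 31.1, 33.5 and 28.8 CPM in DOX-positive libraries. The 2 lowest values were DOX-positive, but replicate 2 of that group lay above the lowest DOX-negative library. The fitted change was -0.19 (SE 0.0928, 95% interval -0.39 to -0.0019), which had an unadjusted edgeR p of 0.048 and an adjusted p of 0.128. TAP2 (chr6:32821833-32838780, minus strand) had 142, 151 and 151 CPM against 159, 155 and 151 CPM, a change of 0.069 (SE 0.0631, 95% interval -0.062 to 0.20, edgeR adjusted p = 0.459). A predicted readthrough gene on the same strand, AL669918.1, shares 80.2% of the 50-base windows of TAP2, so the TAP2 count is uncertain by whatever the counting step did with those reads. TAPBP (chr6:33299694-33314387, minus strand) had 300.1, 329 and 304 CPM against 328, 344 and 323 CPM, a change of 0.092 (SE 0.0617, 95% interval -0.036 to 0.22, edgeR adjusted p = 0.290). PSMB8-AS1 lies antisense over 9.49% of the TAP1 exon bases.

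NLRC5 (ENSG00000140853.15, chr16:56989485-57083531, plus strand), the class I transactivator, was expressed at a low level in both groups. It had 239, 185 and 174 counts in DOX-negative and 253, 209 and 180 counts in DOX-positive libraries, or 13.2, 9.46 and 8.66 CPM against 11.02, 10.9 and 12.1 CPM. DOX-negative replicate 1 held the highest CPM of all 6, and the rest of that group the lowest. The fitted change was 0.12 (SE 0.149, 95% interval -0.19 to 0.43, edgeR adjusted p = 0.589). It was 0.0051 without DOX-negative replicate 3 and 0.32 without DOX-negative replicate 1. The genes whose log2 CPM followed NLRC5 most closely over the 6 libraries were KIAA2026, INSIG2, MGST3, NIPBL-AS1 and FCF1P2, with Pearson's r from 0.952 to 0.963. They were the 5 highest among all genes of average logCPM of at least 1, so high r follows from the choice. The r values are descriptions over 6 points that share groups and library depth.

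**Figure D2:**
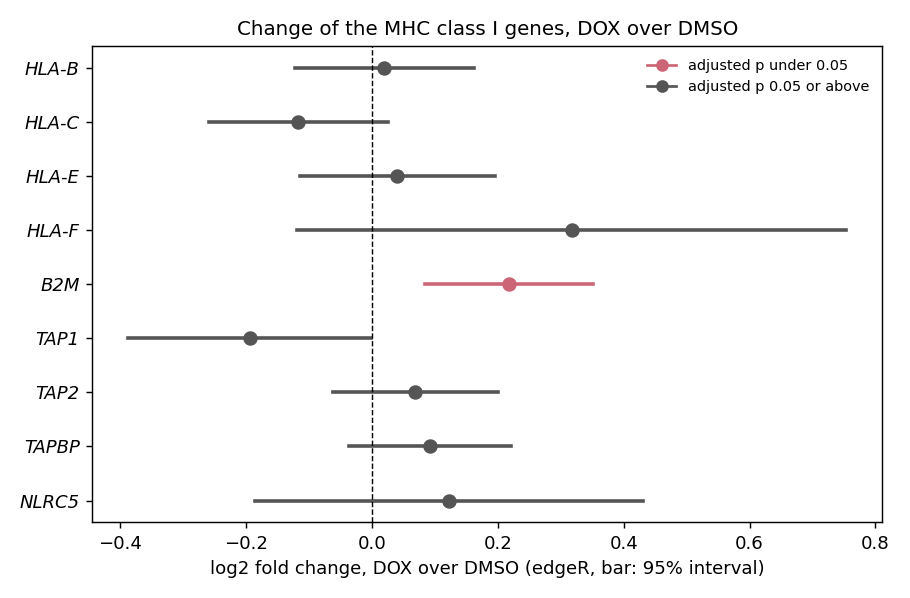
Log2 fold change of DOX over DMSO for each of the 9 genes from edgeR on counts; points are fitted values and bars are 95% intervals (3 libraries per group). The B2M interval (0.084 to 0.35) is the only one of an adjusted p under 0.05, and in the deposited TPM the B2M value was -0.17 or -0.18 before the median shift of all genes was taken off.

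Ratios between members within a library do not depend on scaling, and 7 such ratios were compared. With 3 libraries against 3, a two-sided exact permutation test cannot give a p below 0.1. The HLA-C to B2M log2 ratio was -1.99, -1.86 and -1.82 in DOX-negative and -2.26, -2.18 and -2.25 in DOX-positive libraries. All DOX-positive ratios were lower, by 0.34 on average, which is 0.791-fold (exact permutation p = 0.1, 0.117 after Benjamini-Hochberg adjustment over the 7 ratios). HLA-B to B2M moved by -0.20 and HLA-E to B2M by -0.18, each with the groups apart and the same exact p. HLA-F to B2M moved by 0.095 with overlapping groups (exact permutation p = 0.8). These ratios share B2M in the denominator and are not independent of each other.

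Among heavy chains, HLA-B to HLA-C rose in every DOX-positive library above every DOX-negative one, with a difference of 0.14 (exact permutation p = 0.1). In the transporter, TAP1 to TAP2 was lower by 0.26 and TAPBP to TAP1 was higher by 0.29, both with the groups apart and the same smallest p. Both of these ratios contain TAP1 and are not independent of each other. How often other gene pairs separate in this way was not tested for any ratio. Among single genes, 39.8% had the groups apart in CPM. In a comparison added after the data were seen, the heavy chains were summed per kilobase of transcript, and the ratio of B2M to heavy chain was 1.66, 1.56 and 1.49 in DOX-negative and 1.89, 1.80 and 1.92 in DOX-positive libraries. The groups did not overlap and the mean ratio was 1.19-fold higher with DOX (exact permutation p = 0.1).

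To compare levels between genes, CPM were divided by the length of the principal transcript in kilobases (CPM per kb). In DOX-negative cells the order was B2M at 333 ± 19.7, TAPBP at 165 ± 8.37, HLA-C at 99.4 ± 3.36, HLA-B at 85.3 ± 0.883 and TAP2 at 59.3 ± 2.19 CPM per kb (SD, n = 3 each). HLA-E followed at 23.4 ± 0.961, TAP1 at 12.1 ± 1.05, HLA-F at 3.89 ± 1.12 and NLRC5 at 1.53 ± 0.352 CPM per kb. Each neighbouring pair in this order was separate in the DOX-negative libraries. That separation is between replicates and does not cover the choice of length. Principal transcripts of B2M and HLA-B hold 1705 and 1547 bases, but all their annotated exons together hold 6079 and 3051. Levels per kb would change with that choice. With DOX, HLA-C (86.0 to 99.8 CPM per kb) and HLA-B (82.0 to 94.5) overlapped. By principal transcript length, light chain transcript was thus 3.90-fold the level of HLA-B per kb in vehicle-treated cells.

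The deposited TPM give another picture of these levels. By TPM, B2M stood 24.1-fold above HLA-B in DOX-negative cells. For each gene the count divided by the TPM gives the length that the TPM used, up to a constant. Relative to annotated exon length and to the median of 10813 genes elsewhere, all with at least 50 counts in every library, that length was 4.50-fold for HLA-B, 6.13-fold for HLA-C, 8.51 for HLA-E, 2.75 for HLA-F, 7.34 for TAP1, 10.7 for TAP2 and 5.83 for TAPBP. It was 0.407 for B2M and 0.775 for NLRC5, the members outside chromosome 6. The pattern held for the region and not for the chromosome: 92 genes between 28.5 and 33.5 Mb of chromosome 6 had a median of 6.39 (interquartile range 4.11 to 7.98), and 85.9% of them exceeded 3, against a median of 1.15 and 2.63% for 495 genes in the rest of the chromosome. TPM of genes in the MHC region are therefore low next to those of other genes. With each library's median taken off, the implied length did not vary between libraries (median SD 0.00039 on the log2 scale). These lengths thus leave a gene's change relative to the library median untouched. The median of all genes itself moved by -0.32 or -0.39 in the TPM. The lengths used for the TPM are not given in the sources used here.

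**Figure D3:**
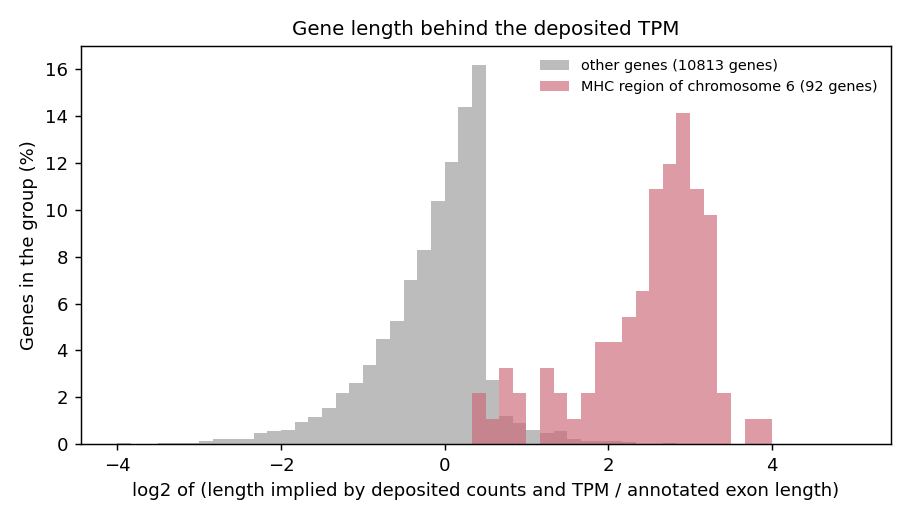
Distribution, in percent of genes, of the log2 ratio between the gene length implied by the deposited counts and TPM and the annotated exon length, for 92 genes of the MHC region of chromosome 6 (red) and 10813 other genes (grey), each relative to the median of the other genes. The MHC region sits at a median ratio of 6.39, apart from the other genes at 1.

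Genes around the class I members were compared from 12 lists covering peptide supply, loading, transcription, signaling and surface turnover. Of 96 listed genes, 78 had enough counts to be tested and 25 of these reached an edgeR adjusted p under 0.05 (32.1%), 11 higher and 14 lower, close to the 26.7% of all genes. Their median log2 fold change was -0.0096 against -0.0034 for all genes. In the deposited TPM, 0 of these genes were called higher and 3 lower. There the median of all genes stood at -0.32 or -0.39. With that median taken off, each of the 25 called genes kept the direction it had in counts. The plot of list genes shows the spread within each list. The lists were written with earlier results of these data known, so their counts are descriptions.

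**Figure D4:**
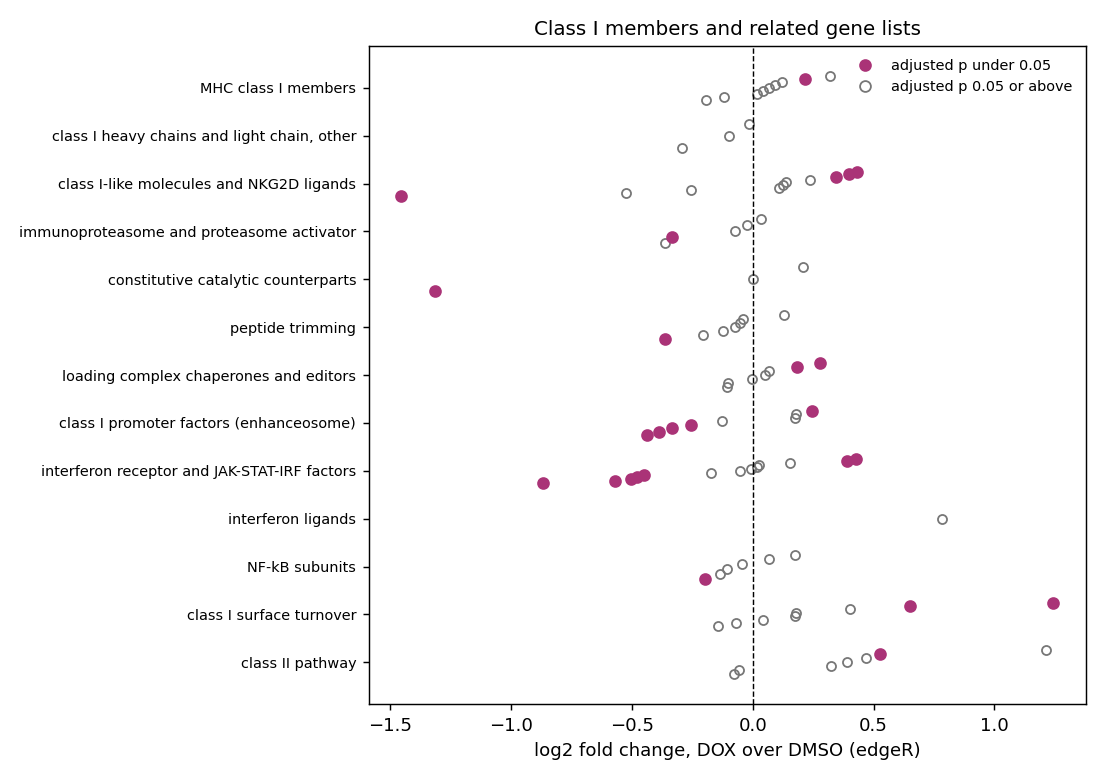
Log2 fold change of DOX over DMSO (edgeR, counts) for the 9 members and for the tested genes of 12 lists; each point is a gene, filled where the adjusted p was under 0.05 and open otherwise. Filled are 1 of 9 members, 5 of 8 class I promoter factors and 7 of 13 interferon receptor and JAK-STAT-IRF factors. Of all genes tested, 26.7% passed. B2M, MR1, HSPA5, CALR, NFYC and SOCS3 had the opposite sign in the deposited TPM before the median shift of all genes was taken off.

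The interferon receptor and JAK-STAT-IRF list holds the signaling parts that induce class I genes. Of its 13 tested genes, 7 passed (53.8%, against 26.7% of all genes tested), 5 lower and 2 higher, with a median of -0.051. IFNGR1, the ligand-binding chain of the interferon-γ receptor, had 58.2, 51.3 and 64.0 CPM in DOX-negative and 32.1, 32.2 and 30.8 CPM in DOX-positive libraries. The groups were far apart, and IFNGR1 fell to 0.548-fold (log2 fold change -0.87, SE 0.0885, edgeR adjusted p = 1.90e-07). IFNAR2, a chain of the type I interferon receptor, fell by 0.48 (edgeR adjusted p = 4.72e-05), IRF2 by 0.50 (0.00345) and IRF9, the DNA-binding part of the type I response complex, by 0.57 (0.00862, 0.0798 without DOX-negative replicate 2). JAK1 and SOCS3 were outside the naming rule and were chosen after their values were seen. JAK1, the kinase at both receptors, rose from 176 ± 1.30 to 237 ± 5.83 CPM (log2 fold change 0.43, SE 0.0599, edgeR adjusted p = 1.44e-05). SOCS3, an inhibitor of JAK signaling, rose by 0.39 (edgeR adjusted p = 0.0216), was -0.016 or -0.012 in the deposited TPM before the median shift was taken off, and lost its call without DOX-negative replicate 2 (0.0593) or 3 (0.0832) and without DOX-positive replicate 1 (0.131) or 3 (0.0566). IRF1, a direct activator of class I promoters, did not pass (-0.051, SE 0.124, edgeR adjusted p = 0.810).

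Interferon ligand genes were nearly silent. Of 8, IFNG, IFNB1, IFNA1, IFNK, IFNL1, IFNL2 and IFNL3 had 0 counts in all 6 libraries, so that a level of up to 0.199 CPM is allowed by the shallowest. IFNE had 6, 10 and 9 counts in DOX-negative and 15, 11 and 16 in DOX-positive libraries and did not pass (edgeR adjusted p = 0.225).

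Of the 8 factors that assemble on class I promoters with NLRC5, 5 passed (62.5%, against 26.7% of all genes tested). Of these, 4 were lower and 1 was higher, and the list median was -0.19. RFX5, the DNA-binding subunit of RFX, had 158, 172 and 159 CPM in DOX-negative and 123, 121 and 131 CPM in DOX-positive libraries. Every DOX-positive library was lower, and RFX5 fell by 0.39 (SE 0.0655, edgeR adjusted p = 0.000134). NFYA, the sequence-specific subunit of the CCAAT-binding factor, fell by 0.44 (SE 0.0766, edgeR adjusted p = 0.000188). CREB1 and ATF1, which bind CRE sites, fell by 0.33 (edgeR adjusted p = 0.00183) and 0.26 (0.0269), the latter call being lost with the replicate number as a block (0.0521) and without DOX-negative replicate 1 (0.228), DOX-positive replicate 1 (0.0828) or DOX-positive replicate 3 (0.0958). NFYC, chosen after its value was seen, rose by 0.24 (edgeR adjusted p = 0.0281), lost its call with the block (0.0670), with library totals (0.0583) and without DOX-negative replicate 1 (0.104) or 2 (0.0616) or DOX-positive replicate 1 (0.107), and read -0.14 or -0.15 in the deposited TPM before the median shift was taken off. RFXAP, RFXANK and NFYB did not pass. Of 6 NF-kB subunits and inhibitors, 1 passed (16.7%, against 26.7% of all genes tested). RELA fell by 0.20 (edgeR adjusted p = 0.0345). Its call was lost with the block (0.0829) and in every fit without 1 library (0.0538 to 0.111) except that without DOX-positive replicate 1.

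Peptide supply showed 1 large change. PSMB5, the chymotrypsin-like subunit of the constitutive proteasome, had 57.9, 58.9 and 62.7 CPM in DOX-negative and 27.1, 20.5 and 24.4 CPM in DOX-positive libraries. PSMB5 fell to 0.402-fold (log2 fold change -1.32, SE 0.0953, edgeR adjusted p = 1.19e-09), while PSMB6 (0.0027) and PSMB7 (0.21, edgeR adjusted p = 0.0609) did not pass. Its interferon-induced counterpart PSMB8 had a change of -0.025 (SE 0.128, edgeR adjusted p = 0.914). PSMB9, whose start site lies 488 bases from the upstream start of TAP1 on the opposite strand, had a fitted change of -0.36 (SE 0.169, edgeR adjusted p = 0.117) beside the -0.19 of TAP1. Of the 5 immunoproteasome and activator genes, 1 passed (20%, against 26.7% of all genes tested). PSME1, a subunit of the PA28 activator, fell by 0.33 (edgeR adjusted p = 0.00869, 0.0620 without DOX-positive replicate 1). Of 7 trimming peptidases, 1 passed (14.3%, against 26.7% of all genes tested). ERAP2, an aminopeptidase that trims peptides in the endoplasmic reticulum, fell by 0.36 (SE 0.0743, edgeR adjusted p = 0.000876). ERAP1 did not pass (-0.052, edgeR adjusted p = 0.660).

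Of 7 chaperones of class I folding and loading, HSPA5 and CALR passed (28.6%, against 26.7% of all genes tested). HSPA5, the chaperone BiP, rose by 0.28 (SE 0.0598, edgeR adjusted p = 0.00127), against -0.11 in the deposited TPM before the median shift was taken off. CALR, encoding calreticulin of the loading complex, rose by 0.18 (edgeR adjusted p = 0.0324), against -0.21 in the deposited TPM before that shift was taken off. Its call was lost with the block (0.0799), with library totals (0.0713) and without DOX-negative replicate 1 (0.199), DOX-positive replicate 1 (0.108) or DOX-positive replicate 3 (0.0964). PDIA3, CANX and TAPBPL did not pass.

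Transcripts for removal of class I from the cell surface included the largest rise of all listed genes that passed. MARCHF4, listed as MARCH4 in the files, encodes a membrane ubiquitin ligase that targets class I molecules. It had 26.0, 30.1 and 26.8 CPM in DOX-negative and 62.4, 66.8 and 67.03 CPM in DOX-positive libraries. MARCHF4 rose 2.36-fold (log2 fold change 1.24, SE 0.0840, edgeR adjusted p = 4.50e-10). SUSD6, which recruits the ligase WWP2 to class I molecules together with TMEM127, rose from 25.7 ± 2.89 to 40.3 ± 2.08 CPM (SD, n = 3 each, log2 fold change 0.65, SE 0.0946, edgeR adjusted p = 2.25e-05). TMEM127 (0.18, edgeR adjusted p = 0.0929), WWP2 (0.17, 0.113) and MARCHF9 (0.40, 0.209) did not pass. In all, 2 of 8 turnover genes passed (25%, against 26.7% of all genes tested), both higher, and the median over the list was 0.18.

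Class I-like molecules moved in both directions. Of 10 tested, 40% passed, against 26.7% of all genes tested: MICA, MICB and MR1 were higher and ULBP2 was lower. The list median was 0.13. MICB, a stress-induced ligand of the activating receptor NKG2D on NK and T cells, had 119, 107 and 135 CPM in DOX-negative and 164, 167 and 144 CPM in DOX-positive libraries. The groups were apart, and MICB rose by 0.40 (SE 0.0799, edgeR adjusted p = 0.000747). MICA, a related ligand, rose from 24.6 ± 0.830 to 33.1 ± 2.97 CPM (log2 fold change 0.43, SE 0.0940, edgeR adjusted p = 0.00150). MR1, which presents vitamin B metabolites, rose by 0.34 (edgeR adjusted p = 0.0229), against -0.049 or -0.057 in the deposited TPM before the median shift was taken off, and lost its call without DOX-negative replicate 1 (0.0648) or replicate 3 (0.0643) and without DOX-positive replicate 2 (0.131). ULBP2, another NKG2D ligand, had only 44, 33 and 41 counts against 22, 14 and 7, and fell by 1.45 (SE 0.349, edgeR adjusted p = 0.00347).

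The class II pathway was scarce, as in most epithelial cells. CIITA, its transactivator and the relative of NLRC5, had at most 5 counts in any library. Of 7 class II genes tested, 1 passed (14.3%, against 26.7% of all genes tested). HLA-DMA, a peptide editor, rose by 0.53 (SE 0.155, edgeR adjusted p = 0.0146). Its call was lost without DOX-negative replicate 3 (0.0981) or DOX-positive replicate 2 (0.0658).

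None of the 9 members held the heptamer ATCAGTA in the 3′UTR of the principal transcript. This heptamer was singled out in an earlier scan of these same data, so the medians given next are descriptions and no test. It was present in 10.0% of genes with a scanned 3′UTR, whose median log2 fold change was -0.11 (1208 genes) against 0.0015 for those without it (10866 genes). Of the 21 list genes named by rule, it was found in 2, CREB1 and PSMB5, a share near the 10.0% of all scanned genes.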

How the data were processed

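The authors made poly(A)-selected stranded libraries (TruSeq Stranded mRNA) from total RNA of triplicate cultures. They deposited whole-number read counts for 28008 genes and TPM for 25546 genes. Per the labels, STAR, DESeq2 and the build GRCh38/hg38 were used, and the versions, the counting step, its use of strand, the annotation and the TPM lengths are not given in the sources used here. Columns name the line "TR" where titles say "DR", and were matched by DOX state and replicate number. Pairs of same-group libraries were compared for duplicates (chi-square per degree of freedom 3.78 to 20.2, beyond counting noise), and none was merged. Whether the triplicate cultures were grown independently is not stated, so p-values measure the spread between them. The 3-count floor speaks for counting error alone.

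The count fit used edgeR 4.0.16 in R 4.3.3: filterByExpr (14292 genes), TMM factors (0.986 to 1.03), and glmQLFit and glmQLFTest with group as the only term, two-sided, with Benjamini-Hochberg adjusted p under 0.05 over all genes as the threshold. CPM use TMM-scaled totals. Alternatives were RLE factors, library totals, DESeq2 1.42.0, dropping the filter, a minimum of 10 counts per library, the replicate number as a block, thinning to the smallest total, limma 3.58.1 on log2(TPM + 1) and log2(TPM + 0.1), and each library left out, 15 in all. TPM fold changes carry the pseudocount and so understate changes of scarce genes. The fits were tested on simulated counts.

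Members and lists were chosen with earlier results of these data known. Named were the members, MUC1 and, per list, up to 4 genes past the threshold with the largest change; for NLRC5, the 5 genes of average logCPM of at least 1 with the highest Pearson's r. NFYC, JAK1 and SOCS3, and genes named as not passing, were added after their values were seen. Coordinates, lengths and shared windows came from GENCODE 29 (GRCh38), and promoters from RefSeq (GRCh38.p14). MARCHF4 and MARCHF9 were matched through RefSeq synonyms. Some genes of these lists are not reported here by name.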

Additional observations from a re-analysis of the deposited data

How the results depend on the processing

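The B2M rise stayed past the threshold under 7 alternatives on all counts, and was lost without DOX-negative replicate 3 or DOX-positive replicate 2, among fits without 1 library that ranged from 0.17 to 0.25. In those 2 fits 0 of 9 members were called, against 1 in the others. In the deposited TPM (log2(TPM + 1), then log2(TPM + 0.1)) 0 members were called and the values turned for HLA-B (-0.36, -0.38), HLA-E (-0.29, -0.34), HLA-F (-0.061, -0.081), B2M (-0.17, -0.18), TAP2 (-0.26, -0.32), TAPBP (-0.29, -0.30), NLRC5 (-0.18, -0.24), MR1 (-0.049, -0.057), HSPA5 (-0.11, -0.11), CALR (-0.21, -0.21), SOCS3 (-0.016, -0.012) and NFYC (-0.14, -0.15). The median of all genes stood at -0.32 and -0.39 there, and with it taken off the members lay between -0.071 and 0.15 of their values from counts. TPM called 443 and 408 of all genes against 3816, and in the lists 0 higher and 3 lower in either setting. The deposited TPM spread more between DOX-negative replicates: B2M was 442 ± 149 TPM there, against 567 ± 33.6 CPM (SD, n = 3). The part of this spread in the lost calls was not tested. HLA-B was also -0.015 with library totals and ranged from -0.051 (without DOX-positive replicate 2) to 0.056 without 1 library. The HLA-F to B2M ratio ranged from -0.11 to 0.26 and turned without DOX-negative replicate 3 or DOX-positive replicate 2. Fits without 1 library called 2784 to 3645 genes, and 8 to 10 higher and 12 to 16 lower list genes. Of the 25 list genes called, 16 kept the call in every alternative on counts that tested them (ULBP2 was not tested with at least 10 counts in every library), 9 lost it in at least 1, and 0 changed sign on counts. Replicate numbers did not pair the libraries: deviations of same-numbered libraries correlated at -0.046, -0.12 and -0.032. With the replicate block, 3158 genes were called, B2M kept its call (edgeR adjusted p = 0.0417), and CALR, ATF1, NFYC and RELA lost theirs. Thinning to the smallest total also lost RELA. HLA-F ranged from 0.034 to 0.53 and NLRC5 from 0.0051 to 0.32 without 1 library.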
